A study of Mus musculus with 4 samples.

Results

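The contractile and actin cytoskeleton genes described here are 38 genes that encode actins, myosins, thin-filament regulators, actin cross-linkers, adhesion anchors and LIM proteins, together with desmin and the transcription factor SRF. They were chosen by symbol, and all 38 were found among the 18193 genes that had a probe set of their own. The RNA came from MEFs, mouse embryonic fibroblasts cultured directly after their isolation from C57BL/6 embryos. The design has 4 conditions with 1 array each: FAN -/- cells with TNF, FAN -/- cells untreated, FAN +/+ cells with TNF and FAN +/+ cells untreated. All cells were without serum for 24 h, and the TNF-treated ones received 50 ng/ml tumour necrosis factor (TNF) for the last 16 h of it, after 8 h without serum. FAN, encoded by Nsmaf, is an adaptor that binds a TNF receptor and is linked to neutral sphingomyelinase.

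Each genotype may be 1 cell preparation: the labels do not say how many embryos or cultures stand behind an array, nor which part of Nsmaf was deleted. The difference between genotypes therefore cannot be told apart from a difference between preparations. Groups follow titles and source names, and the genotype entry goes against them for 2 arrays, since it calls FAN +/+ cells with TNF a knockout and untreated FAN -/- cells wild type. The Nsmaf signal was 179 and 240 in FAN -/- cells with and without TNF, against 376 and 496 in FAN +/+ cells with and without TNF. It followed the titles, with a genotype effect of -1.06 ± 0.11 (log2 ± SE, limma adjusted p = 0.019).

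Fibroblasts contract through bundles of actin and non-muscle myosin, the stress fibres, which end at focal adhesions. Smooth-muscle-type genes such as Acta2, Cnn1 and Tagln are switched on in activated fibroblasts. Many of them are transcribed through SRF, a factor that binds CArG boxes and works with MRTF cofactors, which globular actin holds outside the nucleus. TNF, by contrast, acts largely through NF-kB, which binds kB sites.

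CArG boxes are 10 bases long, with 2 C, then 6 letters that are A or T, then 2 G. They were searched for in windows of 250 bases before to 50 after each start site, in RefSeq sequence of the mouse build GRCm38.p6. Both strands were searched, and a start site may have more than 1 window. Windows were found for 33 of the 38 members. Of these, 8 held the box (24.2%), against 488 of all 27025 genes with a window (1.81%). The 8 windows are shown because SRF targets have long been described among these genes, and each stretch is written 5′ to 3′ on the strand of the gene, with the box in capitals.
Acta1, chr8:123894819-123894868, minus strand: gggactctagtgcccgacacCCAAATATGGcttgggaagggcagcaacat
Lmcd1, chr6:112273523-112273572, plus strand: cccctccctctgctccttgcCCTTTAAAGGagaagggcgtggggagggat
Vcl, chr14:20929151-20929200, plus strand: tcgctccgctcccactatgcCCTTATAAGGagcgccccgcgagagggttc
Myl9, chr2:156775283-156775332, plus strand: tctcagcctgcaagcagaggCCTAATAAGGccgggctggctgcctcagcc
Myl6, chr10:128493030-128493079, minus strand: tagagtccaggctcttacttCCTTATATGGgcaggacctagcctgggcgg
Cnn2, chr10:79988524-79988573, plus strand: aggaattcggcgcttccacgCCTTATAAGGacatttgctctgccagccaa
Srf, chr17:46556195-46556264, minus strand: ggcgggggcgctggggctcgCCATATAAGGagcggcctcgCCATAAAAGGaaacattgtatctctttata
Actc1, chr2:114052893-114052942, minus strand: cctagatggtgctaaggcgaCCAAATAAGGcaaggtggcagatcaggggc

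The box of Acta1 began at position -73 relative to its start site and that of Lmcd1 at -215. The Srf gene itself carried 2 boxes. Acta2, the smooth muscle alpha-actin, held 2 CArG-like boxes, in which 1 central letter is neither A nor T. Such boxes were in 6 of 33 members (18.2%) and 9.69% of all genes with a window.
Acta2, chr19:34255378-34255477, minus strand: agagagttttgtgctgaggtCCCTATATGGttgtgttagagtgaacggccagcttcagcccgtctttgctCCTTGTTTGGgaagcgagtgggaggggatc
A kB site, searched as the general NF-kB motif of 10 bases, was in 10 of 33 members (30.3%) and 9.55% of all genes with a window. The latter include genes not measured here. Among genes with a window that entered the fit described below, 1198 held such a site and 8357 did not. Tagln2, the member that rose with TNF, held one just before its start site, while 5 of the 10 members with a site had fitted TNF effects below 0.
Tagln2, chr1:172500215-172500245, plus strand: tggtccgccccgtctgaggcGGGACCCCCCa
These matches describe the letters of the windows and do not show that a factor was bound.

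Signals below are on the linear scale, differences are log2, and a gene's value is that of its brightest probe set. Values under a floor of 77.0, the 50th percentile of all values, were raised to it. Differences given for a gene's other probe sets were taken without raising values to the floor. All 38 members were above the floor on at least 2 arrays and 37 on all 4, the exception being Actc1. The arrays were near each other in median (log2 6.21 to 6.3). With 1 array per condition, comparisons of 1 array with another have no replicate check and no p. Tests come from a limma fit of additive genotype and TNF effects over 11817 genes. Its error is how far the TNF response differed between genotypes, drawn towards the error of other genes. RNA of whole cultures was measured, so fewer cells of a type and less RNA per cell cannot be told apart.

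With TNF, 4 members fell in the limma fit, Lmcd1, Myh10, Cnn1 and Myh11, and Tagln2 rose. The 4 that fell were 10.5% of the 38 members, against 1.14% of all genes tested. The 1 that rose was 2.63% of the members, against 1.57% of all genes tested. With the arrays centred on their medians, the same fit gave 10 lower and 1 higher, and the shares of all genes were then larger too, at 4.39% lower and 3.43% higher. In single comparisons, 3 of 38 members were at least 2-fold lower with TNF in FAN -/- cells, where 1.1% of all genes measured were, and 1 was at least 2-fold higher, where 1.38% were. In FAN +/+ cells 4 of 37 were at least 2-fold lower (1.98% of all genes), and 1 was higher by that much (2.26% of all genes). The direction was shared more widely than the size. With TNF, 25 of 38 members (65.8%) were lower in both genotypes, as were 35.0% of all genes tested, and 8 (21.1%) were higher in both, as were 30.9%. These directions were counted without a minimum size, so Actb, at -0.02 in both genotypes, was among the 25. The median member difference was -0.14 in FAN -/- cells and -0.21 in FAN +/+ cells, beside 0.01 and -0.04 over all genes.

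**Figure D1:**
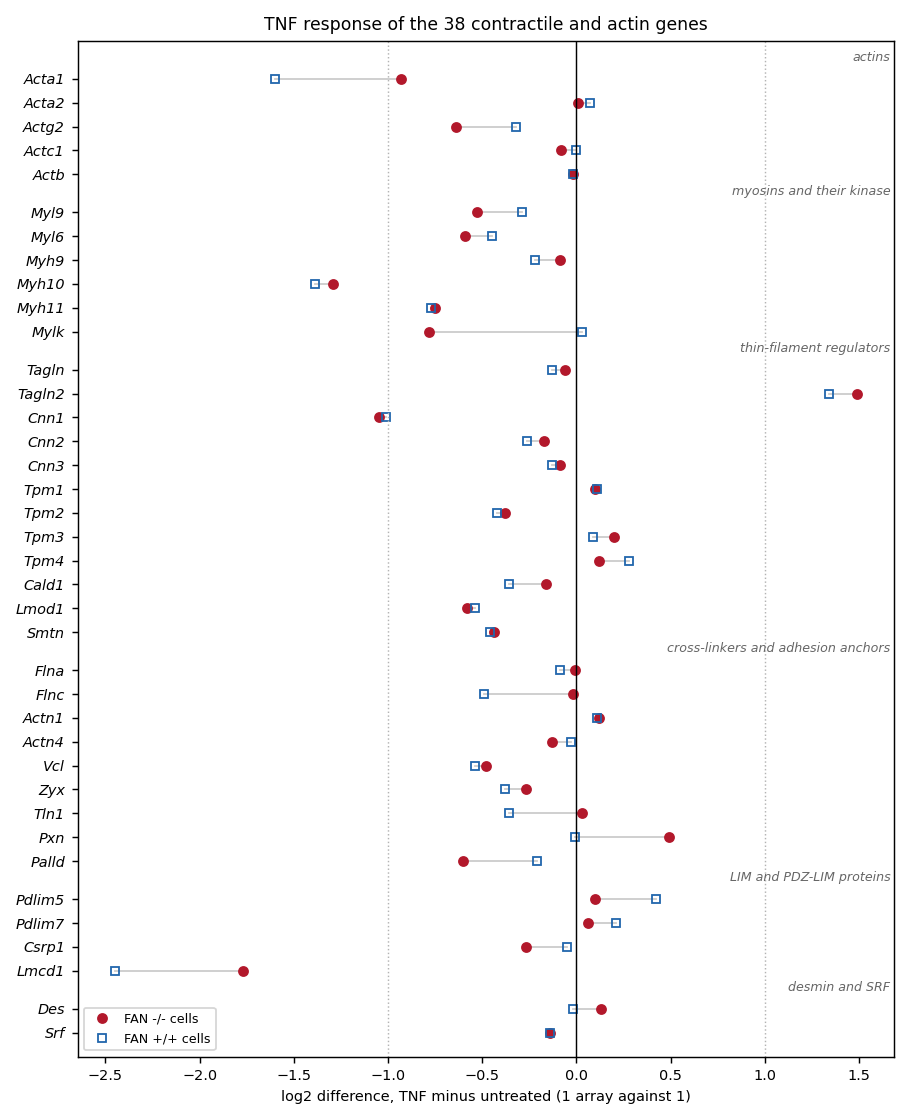
Log2 difference between TNF-treated and untreated cells for each of the 38 members, grouped by role, with filled circles for FAN -/- and open squares for FAN +/+ cells and dotted lines at 2-fold. Lmcd1, Myh10 and Cnn1 lie beyond the lower line in both genotypes and Tagln2 beyond the upper line.

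FAN -/- cells had higher levels of Actg2, Pdlim7, Des, Myh10 and Zyx and lower levels of Lmcd1 in the same fit. The 5 higher ones were 13.2% of the members, against 2.94% of all genes tested, and the 1 lower one 2.63%, against 3.67%. With TNF, 2 of 38 members were at least 2-fold higher in FAN -/- cells (1.58% of all genes), and 0 were 2-fold lower or more (2.7% of all genes). Untreated, 1 of 38 was at least 2-fold higher (1.48%), and 1 was lower by that much (2.96%). Again more members shared the direction: 30 (78.9%) were higher in FAN -/- cells under both treatments, as were 34.5% of all genes tested, and 4 (10.5%), Lmcd1, Myl6, Srf and Tagln2, were lower in both, as were 35.7%. No minimum size was set here either, and Actb, at 0.04 under both treatments, was among the 30. The median member difference was 0.22 with TNF and 0.23 untreated, beside 0.02 and -0.04 over all genes. The TNF and genotype comparisons use the same 4 arrays.

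**Figure D2:**
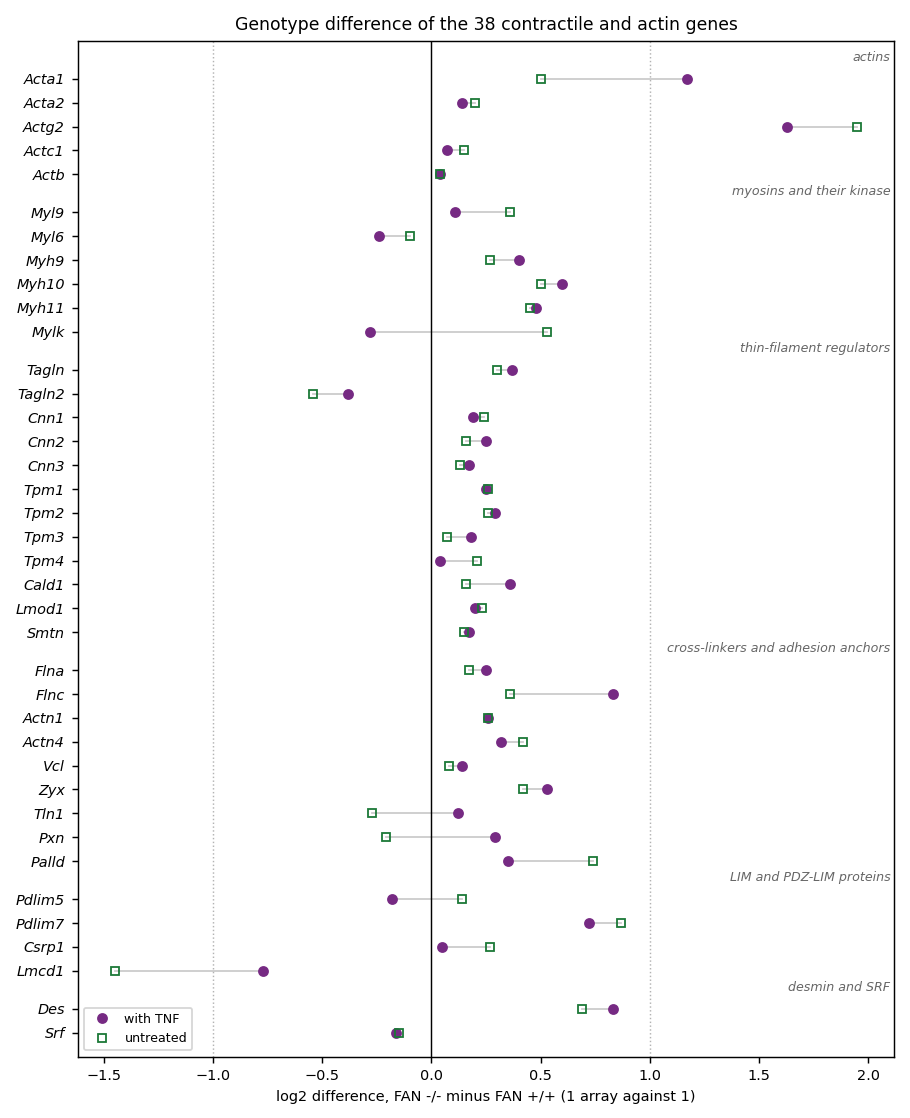
Log2 difference between FAN -/- and FAN +/+ cells for each of the 38 members, grouped by role, with filled circles for TNF-treated and open squares for untreated cells and dotted lines at 2-fold. Most points lie right of 0, Actg2 lies beyond the upper line in both treatments and Lmcd1 lies on the low side.

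Among the actins, Actg2, the enteric smooth muscle gamma-actin, had the largest genotype difference of all members. With TNF its signal was 1276 in FAN -/- cells, against 414 in FAN +/+ cells, and untreated it was 1992 against 516. These were 3.09-fold and 3.86-fold higher, both FAN -/- arrays lay above both FAN +/+ arrays, and the genotype effect was 1.79 ± 0.12 (limma adjusted p = 0.0097). Its TNF effect of -0.48 ± 0.12 did not pass (adjusted p = 0.15).

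Acta1, the skeletal muscle alpha-actin, was read at 362 with TNF and 690 untreated in FAN -/- cells. In FAN +/+ cells it was 161 with TNF and 487 untreated. Both TNF arrays were below both untreated arrays, the difference being 1.90-fold in FAN -/- and 3.02-fold in FAN +/+ cells. The fitted effects, -1.26 ± 0.19 for TNF (limma adjusted p = 0.056) and 0.84 ± 0.19 for genotype (adjusted p = 0.085), missed the threshold. With TNF, Acta1 was 2.25-fold higher in FAN -/- cells.

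The other actins showed small differences in their brightest probe sets. Acta2, the actin of smooth muscle and of myofibroblasts, stood at 14875 with TNF and 14748 untreated in FAN -/- cells, against 13485 with TNF and 12880 untreated in FAN +/+ cells. Its TNF effect was 0.04 ± 0.06 and its genotype effect 0.17 ± 0.06 (limma adjusted p = 0.79 and 0.21). A dimmer Acta2 probe set, at 120 to 277, had TNF differences of -0.07 in FAN -/- and 0.87 in FAN +/+ cells. Its genotype differences were 0.26 with TNF and 1.21 untreated. Those of another, above the floor on 3 arrays, were 0.12 and 0.61. Actb, the cytoplasmic beta-actin, had TNF differences of -0.02 in both genotypes. Both genes, and Tagln, Tpm1 and Cald1, lay within 1 log2 unit of the brightest probe set of an array, and whether this compressed their differences was not tested. Actc1, the cardiac alpha-actin, was 81.1 and 85.7 in FAN -/- cells with and without TNF and at the floor on both FAN +/+ arrays. Actins are nearly identical in sequence, so reads of one actin by a probe set of another remain uncertain.

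Of the 5 myosin genes and the myosin kinase gene, 2 fell with TNF, Myh10 and Myh11, and the other 4 did not pass. The fitted TNF effect was below 0 for all 6, at a median of -0.47, as it was for 53.5% of all genes tested, although Mylk was slightly above 0 in FAN +/+ cells alone. Myh10, the heavy chain of non-muscle myosin IIB, had a signal of 3128 with TNF and 7670 untreated in FAN -/- cells, against 2065 with TNF and 5408 untreated in FAN +/+ cells. It fell 2.45-fold and 2.62-fold, with no overlap between TNF and untreated arrays and a TNF effect of -1.34 ± 0.08 (limma adjusted p = 0.011). It was also higher in FAN -/- cells within each treatment, with a genotype effect of 0.55 ± 0.08 (adjusted p = 0.033), although the genotypes overlapped across treatments.

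Myh11, the smooth muscle heavy chain, was dim. It gave 124 with TNF and 209 untreated in FAN -/- cells, against 89.1 with TNF and 152 untreated in FAN +/+ cells. Both TNF arrays were below both untreated ones, and the effect was -0.76 ± 0.10 (limma adjusted p = 0.043). A second Myh11 probe set was under the floor on every array, with TNF differences of 0.05 in FAN -/- and 0.12 in FAN +/+ cells. Myh9, the heavy chain of non-muscle myosin IIA, had TNF differences of -0.09 in FAN -/- and -0.22 in FAN +/+ cells and did not pass.

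The regulatory light chain gene Myl9 had TNF differences of -0.53 in FAN -/- and -0.29 in FAN +/+ cells, and the essential light chain gene Myl6 had -0.59 and -0.45 in the same order of genotypes. Neither passed (limma adjusted p = 0.12 for Myl9 and 0.099 for Myl6). Probe sets that name Myl6 together with other genes were not used. Mylk, the kinase that phosphorylates the regulatory light chain, stood at 556 with TNF and 955 untreated in FAN -/- cells, against 677 with TNF and 662 untreated in FAN +/+ cells. Untreated FAN -/- cells were thus apart from the other arrays, and no fitted effect of Mylk passed (adjusted p = 0.43 for TNF and 0.77 for genotype). A second Mylk probe set gave TNF differences of -0.68 in FAN -/- and -0.01 in FAN +/+ cells.

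**Figure D3:**
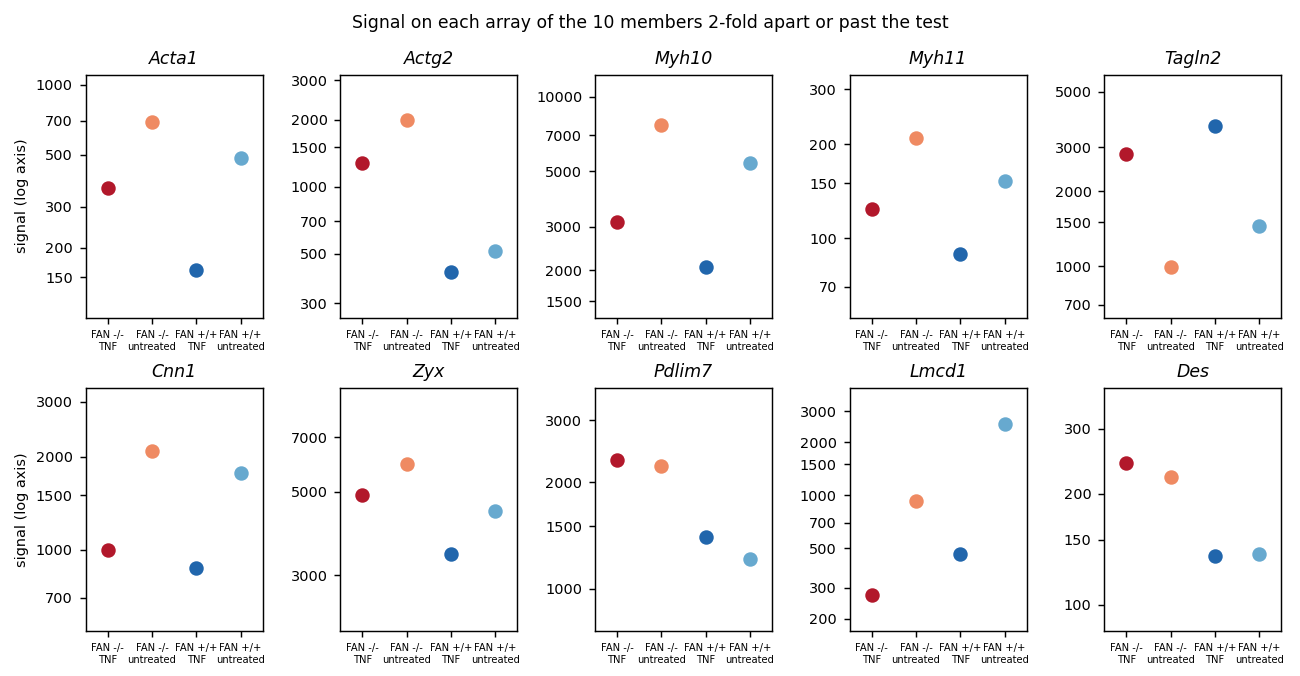
Signal (linear values on a log axis) of the 10 members 2-fold apart or past the test, 1 point per array, FAN -/- left of FAN +/+ and TNF left of untreated. The TNF points are low for Lmcd1, Myh10, Cnn1, Myh11 and Acta1 and high for Tagln2, and both FAN -/- points are above both FAN +/+ points for Actg2, Pdlim7, Des and Zyx.

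The thin-filament regulators held members that moved in opposite directions. Tagln2, an actin-binding relative of smooth muscle transgelin that is found in many cell types, had a signal of 2809 with TNF and 997 untreated in FAN -/- cells, against 3656 with TNF and 1446 untreated in FAN +/+ cells. It rose 2.82-fold in FAN -/- and 2.53-fold in FAN +/+ cells, with an effect of 1.42 ± 0.09 (limma adjusted p = 0.012). A second probe set gave TNF differences of 1.22 in FAN -/- and 1.30 in FAN +/+ cells. Tagln itself, the smooth muscle transgelin, had -0.06 in FAN -/- and -0.13 in FAN +/+ cells at signals of 10917 to 14655.

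Cnn1, the smooth muscle calponin, which binds actin and restrains myosin, had 1002 with TNF and 2082 untreated in FAN -/- cells, against 877 with TNF and 1767 untreated in FAN +/+ cells. The 2 TNF arrays were the lowest, the fold differences were 2.08 and 2.01, and the effect was -1.03 ± 0.09 (limma adjusted p = 0.02). Its relatives showed smaller differences, -0.17 in FAN -/- and -0.26 in FAN +/+ cells for Cnn2 and -0.09 and -0.13 for Cnn3, and neither passed.

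The tropomyosins, which lie along actin filaments and gate myosin, were split in sign. Tpm2 had TNF differences of -0.38 in FAN -/- and -0.42 in FAN +/+ cells (limma adjusted p = 0.073), whereas Tpm1, Tpm3 and Tpm4 lay between 0.09 and 0.28. None of the 4 passed. All 4 probe sets of Tpm2 had TNF differences below 0, of -0.59 to -0.38 in FAN -/- and -0.74 to -0.41 in FAN +/+ cells. Lmod1, a nucleator of smooth muscle actin filaments, had -0.58 in FAN -/- and -0.54 in FAN +/+ cells, and Smtn, the stress fibre protein smoothelin, had -0.44 and -0.46, with adjusted p of 0.097 for Lmod1 and 0.13 for Smtn. Cald1, caldesmon, had -0.16 in FAN -/- and -0.36 in FAN +/+ cells and did not pass.

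Of the 9 cross-linkers and adhesion anchors, Zyx alone passed, and in the genotype comparison. Zyxin, a LIM protein that moves to stress fibres under strain, had a signal of 4920 with TNF and 5916 untreated in FAN -/- cells, against 3411 with TNF and 4437 untreated in FAN +/+ cells. The lowest FAN -/- array was above the highest FAN +/+ array, and the effect was 0.47 ± 0.08 (limma adjusted p = 0.045).

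Vcl, vinculin, which links integrin adhesions to actin, had TNF differences of -0.48 in FAN -/- and -0.54 in FAN +/+ cells, just short of the threshold (limma adjusted p = 0.051). For the brightest probe sets of the cross-linkers Flna, Actn1 and Actn4 no TNF difference went beyond 0.13 in size. A dimmer Actn1 probe set had 0.40 in FAN -/- and -0.10 in FAN +/+ cells. Flnc, the muscle filamin, was 0.83 higher in FAN -/- cells with TNF and 0.36 higher untreated (adjusted p = 0.091), and Palld, palladin, 0.35 and 0.74 higher in the same order of treatments (adjusted p = 0.076). Neither passed.

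The adhesion adaptor Pxn, paxillin, had TNF differences of unlike size in the 2 genotypes. Its signal was 2698 with TNF and 1916 untreated in FAN -/- cells, against 2200 with TNF and 2219 untreated in FAN +/+ cells. All 3 of its probe sets gave TNF differences of 0.46 to 0.61 in FAN -/- cells and of -0.01 to 0.02 in FAN +/+ cells. With 1 array each, this difference of responses has no test. Tln1, talin, which activates integrins, had TNF differences of 0.03 in FAN -/- and -0.36 in FAN +/+ cells. Its 2 dimmer probe sets gave -0.06 and -0.71 in FAN -/- cells and -0.08 and -0.53 in FAN +/+ cells. The probe set with the larger differences was under the floor on both TNF arrays (61.3 in FAN -/- and 58.7 in FAN +/+ cells). Its values were not raised to the floor, so the size of its differences is uncertain.

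The LIM proteins held the strongest TNF difference of any member. Lmcd1, a LIM protein with a cysteine-rich domain that acts as a transcriptional co-regulator, had a signal of 273 with TNF and 931 untreated in FAN -/- cells, against 466 with TNF and 2544 untreated in FAN +/+ cells. It fell 3.41-fold in FAN -/- and 5.46-fold in FAN +/+ cells, both TNF arrays lay below both untreated arrays, and the effect was -2.11 ± 0.19 (limma adjusted p = 0.02). It was also lower in FAN -/- cells, 1.71-fold with TNF and 2.73-fold untreated, with an effect of -1.11 ± 0.19 (adjusted p = 0.046). The genotypes overlapped across treatments, and its 1 probe set, by Affymetrix's naming, may share probes with other transcripts.

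Pdlim7, a PDZ and LIM protein of stress fibres, had a signal of 2316 in FAN -/- against 1402 in FAN +/+ cells with TNF, and 2220 against 1214 untreated. Both FAN -/- arrays were higher, the effect was 0.80 ± 0.09 (limma adjusted p = 0.023), and its TNF effect was 0.13 ± 0.09. Of its dimmer probe sets, 1 gave genotype differences of 0.69 with TNF and 0.80 untreated. Another gave only 0.13 and 0.28, and its genotypes overlapped across treatments (403 in untreated FAN -/- cells, 417 in FAN +/+ cells with TNF). Pdlim5, a relative of Pdlim7, had TNF differences of 0.10 in FAN -/- and 0.42 in FAN +/+ cells. The 7 probe sets of Pdlim5 ranged over -0.11 to 0.25 in FAN -/- and 0.42 to 0.98 in FAN +/+ cells. Csrp1, a LIM-only protein of smooth muscle, had -0.27 in FAN -/- and -0.05 in FAN +/+ cells. Neither Pdlim5 nor Csrp1 passed.

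Des, the muscle intermediate filament protein desmin, was dim, at 242 in FAN -/- against 136 in FAN +/+ cells with TNF and 222 against 137 untreated. The genotypes did not overlap and the effect was 0.76 ± 0.11 (limma adjusted p = 0.034). A second Des probe set was under the floor on every array, with genotype differences of 0.35 with TNF and 0.12 untreated. Srf had TNF differences of -0.14 in both genotypes and genotype differences of -0.16 with TNF and -0.15 untreated, and passed neither test (adjusted p = 0.52 and 0.42).

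**Figure D4:**
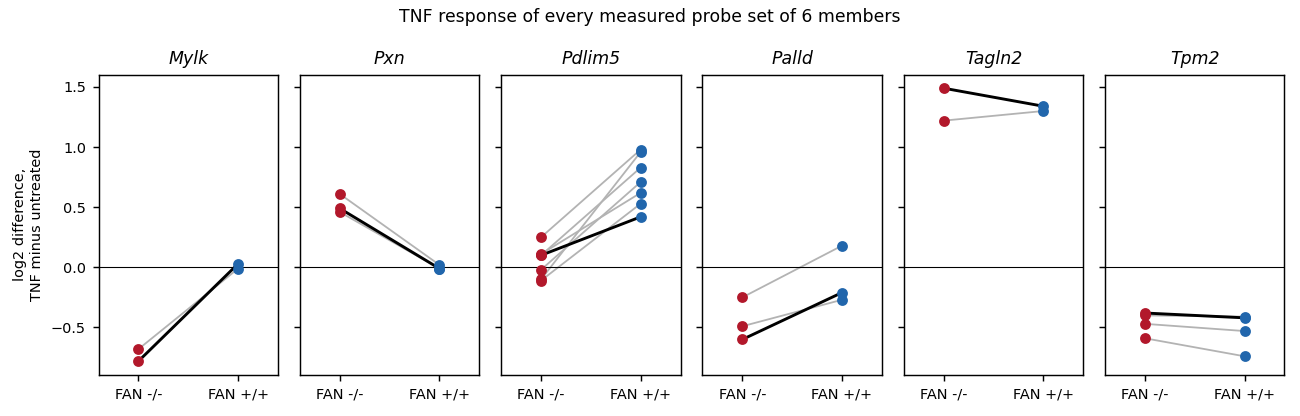
Log2 difference between TNF-treated and untreated cells for each probe set above the floor on at least 2 arrays of 6 members, FAN -/- on the left and FAN +/+ on the right of each panel, with a line joining the values of a probe set and a black line for the brightest. Probe sets of Pxn lie above 0 in FAN -/- cells and at 0 in FAN +/+ cells, and those of Pdlim5 lie higher in FAN +/+ cells.

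For 21 members a second probe set was above the floor. All probe sets of a member had the same sign for 16 of the 21 in the FAN -/- TNF response and 14 in the FAN +/+ TNF response, and for 18 and 16 in the genotype difference with and without TNF.

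As a description, TNF effects were set beside the motifs. The fitted TNF effect was below 0 for 8 of 8 members with a box, at a median of -0.46 and a range of -2.11 to -0.04. The -0.04 was that of Actc1, whose FAN +/+ values had both been raised to the floor. Before that, its TNF differences were -0.08 in FAN -/- and 0.30 in FAN +/+ cells, so its sign depends on the floor. Among the 25 members without a box, 16 were below 0 at a median of -0.16. Of the members that fell in the fit, Lmcd1 alone had a box, and the other members with a box did not pass. Myh10 (-1.34) and Cnn1 (-1.03) had windows without a box, and Myh11 had no window. Over all genes tested, 88 of the 154 genes with a box were below 0, at a median of -0.05, and the 9401 without one had a median of -0.02. For the CArG-like box the medians were alike, -0.15 for the 6 members with one and -0.17 for the 27 without. The 10 members with a kB site had a median of 0.01, with 5 below 0, and the 23 without one a median of -0.26, with 19 below 0. Over all genes tested the medians were -0.01 with a kB site and -0.02 without. Since the searches were chosen with the values known, these medians carry no test.

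**Figure D5:**
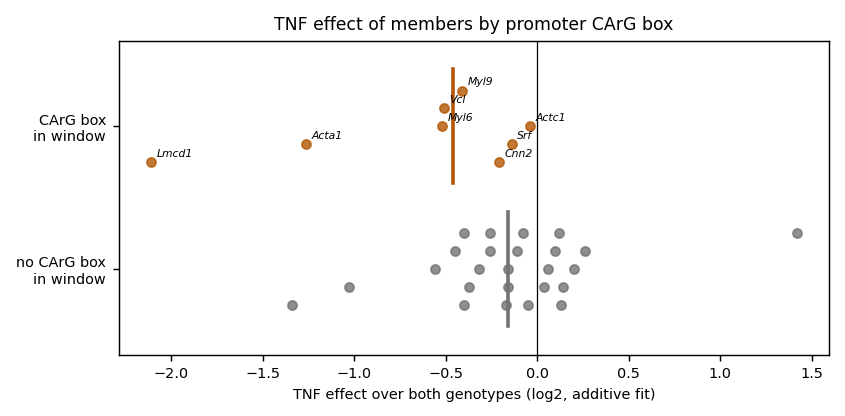
Fitted log2 TNF effect of members with and without a CArG box in the window around the start site, 1 point per member and a bar at the median. All 8 members with a box lie below 0, at a median of -0.46, and the 25 without one have a median of -0.16. The point nearest 0 among those with a box is Actc1, whose FAN +/+ values were raised to the floor. Myh10 and Cnn1, which fell in the fit, are among those without a box.

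The cofactors of SRF did not pass in either comparison. Mrtfa, a myocardin-related cofactor, had a TNF effect of -0.59 ± 0.14 (limma adjusted p = 0.12) and Mrtfb -0.25 ± 0.10 (adjusted p = 0.29). Elk1, Elk3 and Elk4, ternary complex factors that compete with them, had -0.07, 0.36 and 0.15. Myocd, myocardin itself, was at the floor on all arrays.

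Further lists held 29 actin turnover genes, 29 adhesion partners and 14 genes tied to MRTF, YAP or TGF-beta. The last list mixes response genes with parts of the TGF-beta pathway itself, such as Tgfb1, Tgfbr1, Tgfbr2 and Smad3. Of the 23 actin turnover genes tested, none passed for TNF and 1, Pfn2, was higher in FAN -/- cells. Of the 26 adhesion partners tested, Pdlim4 rose and Fhl2 fell with TNF, while 6 were higher and 3, Pdlim4, Trip6 and Csrp2, lower in FAN -/- cells. Of all genes tested, 1.57% rose and 1.14% fell with TNF, and 2.94% were higher and 3.67% lower in FAN -/- cells. Fhl2, a LIM protein and SRF target, had a TNF effect of -0.97 ± 0.10 (limma adjusted p = 0.027). Pdlim1, a PDZ and LIM protein, had a genotype effect of 1.63 ± 0.10 (adjusted p = 0.0085). Of the 12 genes tested from the MRTF, YAP and TGF-beta list, Ankrd1 alone passed. It had a TNF effect of 1.33 ± 0.13 (adjusted p = 0.023) and a genotype effect of 1.79 ± 0.13 (adjusted p = 0.0098). The median TNF effects were -0.03 for actin turnover, -0.17 for adhesion partners and -0.08 for the MRTF, YAP and TGF-beta list. The median genotype effects were 0.09, 0.11 and 0.21 in that order.

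Markers of other cells were mostly at the floor. Of 9 fibroblast markers all were measured, with a summed signal of 64256 with TNF and 77283 untreated in FAN -/- cells, against 93457 with TNF and 93130 untreated in FAN +/+ cells. Of these, 3 were lower in FAN -/- cells, Lum (-4.97 ± 0.48, limma adjusted p = 0.016), Dcn (-1.64) and Pdgfra (-1.62), beside the higher Actg2, Pdlim7 and Des. The other 6 did not pass for genotype and had effects on both sides of 0, -0.47 for Col3a1, -0.26 for Col1a1, -0.05 for Col1a2, 0.04 for Vim, 0.16 for Pdgfrb and 0.50 for Thy1. With TNF 1 of the 9 fell, Thy1 (-0.82 ± 0.12, adjusted p = 0.05 after rounding), beside the members that fell. Of 5 pericyte and vascular smooth muscle markers 4 were above the floor, summing to 2304 with TNF and 3188 untreated in FAN -/- cells, against 1454 with TNF and 2516 untreated in FAN +/+ cells, and none passed. Kcnj8 was at the floor. Of 9 skeletal and 6 cardiac muscle markers 1 each was above the floor, with Myod1, Myog, Myh6 and Myh7 at it. Among 5 macrophage markers Ptprc, Cd68 and Adgre1 were at the floor, and the summed signal was 519 with TNF and 1016 untreated in FAN -/- cells, against 552 with TNF and 334 untreated in FAN +/+ cells. Of 4 endothelial markers 1 was above the floor, and of 5 epithelial markers 3, with summed signals of 721 to 814 over the arrays. The part of these markers in the TNF and genotype differences was not tested.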

How the data were processed

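Total RNA of the 4 MEF conditions was read on Affymetrix expression arrays of the mouse genome, each condition on 1 array. The deposited values are on the log2 scale, as judged from their range, although linear intensities had been assumed. MAS5 was used, per the submitters' processing notes, with no version given. The normalization and any filter are not given in the sources used here, so how far low values were compressed is unknown. Of 45101 probe sets, 34945 are assigned to 1 gene, 932 to several and 9160 to none that is named here. Of those with 1 gene, 34754 matched the reference gene table by Entrez identifier.

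The probe set of highest mean stood for its gene, and gene values under the 50th percentile were raised to it. Values of a gene's other probe sets were not raised. The fit used R 4.3.3 and limma 3.58.1 (lmFit, and eBayes with a trend on intensity). It had 1 residual and 3.519 prior degrees of freedom, and p-values of 11817 genes were adjusted by Benjamini-Hochberg with a threshold of 0.05. The error behind these p-values is how far the TNF response differed between genotypes, drawn largely towards the error of other genes. It may be technical or a real difference of responses, and it is not a spread between replicates. Precision is limited by the number of arrays. Genes above the floor on at least 1 array entered a comparison of 1 array with another.

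Signals on every array are given for members at least 2-fold apart or past the fit, and for Acta2, Mylk and Pxn, chosen after their values were seen. The rest are given by differences and counts. Of each other list, up to 4 of the largest were named, and the SRF cofactors. Members and lists were chosen with earlier results of these data known. Motifs, printed stretches and the genes of the probe set plot were chosen after the values were seen. Alternatives were other floors, scalings, probe set rules, variance settings, a one-term model and leaving out arrays. Results of one further gene list are not reported here.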

Additional observations from a re-analysis of the deposited data

Results flagged for a closer look

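In 4 members the genotype difference had opposite signs with and without TNF, by at least 0.1 log2 each way, a minimum set after the values were seen. The difference between the 2 was not tested, since each condition has 1 array. The value given is the genotype difference with TNF minus that without. It was -0.81 for Mylk, whose signal was lower in FAN -/- than in FAN +/+ cells with TNF and higher untreated. Pdlim5 had -0.32, in the same sense. Pxn had 0.51 and Tln1 0.39, both higher in FAN -/- cells with TNF and lower untreated. The other probe sets of Pxn gave the same signs. The 2 other probe sets of Tln1, both dimmer, were higher in FAN -/- cells untreated, by 0.03 and 0.24.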

How the results depend on the processing

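The counts of members past the fit, 4 lower and 1 higher with TNF and 5 higher and 1 lower in FAN -/- cells, moved with some settings. A floor at the 70th percentile, with 35 members tested, gave 7 lower with TNF (2.75% of all genes) and 8 higher in FAN -/- cells (4.03% of all genes), and a floor at the 30th percentile 0 lower in FAN -/- cells (2 at an unadjusted p under 0.05, and 2.63% of all genes adjusted). Centring the arrays on their medians gave 10 lower with TNF (4.39% of all genes), and 8 higher (4.51%) and 2 lower (8.31%) in FAN -/- cells. Without the intensity trend of limma, 3 were higher (2.59% of all genes) and 0 lower in FAN -/- cells (2 lower unadjusted, 3.33% of all genes adjusted). With all probe sets fitted, 0 members were lower in FAN -/- cells (2 unadjusted, and 2.67% of all probe sets tested adjusted). Lower with TNF were 3 members in that setting (0.554% of all probe sets). It was also 3 with the floor at the 30th percentile (0.634% of all genes) and with the robust option of eBayes (1.07%). No floor (1.76%) and quantile normalization (1.7%) gave 6 lower with TNF, and the mean of a gene's probe sets 5 (1.61%). A one-term limma model gave 0 higher and 0 lower members with TNF (1 and 8 unadjusted). Of all 11817 genes tested, 0 and 0 passed there (450 and 434 unadjusted). In FAN -/- cells it gave 0 higher and 0 lower members (9 and 0 unadjusted), beside 4 and 6 of all genes (794 and 871 unadjusted). For TNF the one-term model equals the fit under the genotype entries that conflict with the titles. The cause of these shifts was not tested. Of 10 alternatives, Lmcd1, Myh10, Cnn1 and Tagln2 passed for TNF in 9 each, Acta1 in 5, and Myh11 in 4 of 8. For genotype Actg2 and Pdlim7 passed in 9, Des in 8 of 9, Myh10 in 7, Lmcd1 in 6 and Zyx in 5. Median member differences ranged over -0.14 to -0.14 and -0.26 to -0.15 for the TNF response in FAN -/- and FAN +/+ cells, and 0.19 to 0.24 and 0.16 to 0.25 for genotype with and without TNF. They were held to a tolerance of 0.09 log2, the median SE of the members' effects, chosen after seeing the data. Leaving out 1 array leaves 0 residual degrees of freedom, so such a value is the difference of the remaining pair and has no test. With its genotype term the fit already sets the TNF and untreated arrays of a genotype against each other. Signals near the floor (Actc1, Myh11, Des) and near the array maximum (Acta2, Actb) limit what these arrays can show.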
